A study of Homo sapiens with 11 samples.

Results

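Mitochondrial ribosomal protein genes are the nuclear genes whose products assemble, with mitochondrial rRNAs, into the ribosome of the mitochondrial matrix. They were taken as every gene symbol of the count table that reads MRPL (large subunit) or MRPS (small subunit), then a number and at most 1 letter from A to C. Of 28152 symbols, 78 matched: 49 of the large and 29 of the small subunit, as the symbols name them, although the products of MRPS18A and MRPS30 are known to sit in the large subunit. They were followed in tumours of BT-474, an established human breast cancer cell line labelled HR+/Her2+, that had grown in the mammary fat pad of female athymic nude mice, a host without T cells. Every animal, controls included, carried a slow-release pellet of 0.72 mg estradiol made for 90 days, and tumours could enter the study above 95 mm3. Of the 11 tumours, 6 came from animals given vehicle, 5% mannitol in water, and 5 from animals given evexomostat (SDX-7320), an inhibitor of methionine aminopeptidase 2, at 12 mpk. Both were injected under the skin every 4 days, and the time label of all tumours was day 33. The labels give no age, and 1 library was made from a portion of each tumour. The samples are named here by group and replicate number, vehicle 001, 003, 004, 005, 006 and 007 and evexomostat 002, 003, 004, 005 and 007. The p-values set the difference between the groups against the spread between these tumour libraries.

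Mitochondrial ribosomes translate the few proteins that mitochondrial DNA encodes, all of them core subunits of the respiratory chain and ATP synthase. Their protein part is made in the cytosol from nuclear genes and imported, so building a mitoribosome needs both genomes. Some of these proteins have bacterial counterparts and others are found only in mitochondria. Tumours that depend on oxidative phosphorylation need this machinery, and the promoters of its genes are known for binding sites of ETS-family factors such as GABP, of YY1 and of NRF1.

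The deposited files carry no genome coordinates. RefSeq promoters (GRCh38.p14, from 250 bases before to 50 after the annotated start) matched 69 of the 78 genes by symbol. MRPL2, MRPL10, MRPL13, MRPL15, MRPL21, MRPL23, MRPL35, MRPS28 and MRPS36 had no entry. The 6 promoters below belong to genes whose level was higher with evexomostat once vehicle 001 was left out, and are shown because motifs named next occur in 4 of them and not in the other two. Each runs 5′ to 3′ on the gene's strand, from 150 bases before to 30 after the start, and capitals mark the letters CCGGAAG (the ETS core) or AAGATGGC (the YY1 core), or their reverse complements. They lie at chr1:156741059-156741238 (minus strand) for MRPL24, chr4:77862680-77862859 (plus strand) for MRPL1, chr14:22829737-22829916 (plus strand) for MRPL52, chr20:3045902-3046081 (plus strand) for MRPS26, chr17:75904855-75905034 (minus strand) for MRPL38 and chr17:75012520-75012699 (plus strand) for MRPL58.
MRPL24: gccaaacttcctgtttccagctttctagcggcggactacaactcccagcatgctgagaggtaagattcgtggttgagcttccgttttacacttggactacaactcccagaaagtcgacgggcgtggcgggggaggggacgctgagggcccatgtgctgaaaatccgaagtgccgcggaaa
MRPL1: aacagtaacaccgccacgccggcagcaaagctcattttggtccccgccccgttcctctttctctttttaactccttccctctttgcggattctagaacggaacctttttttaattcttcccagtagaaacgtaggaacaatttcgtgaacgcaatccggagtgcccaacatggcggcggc
MRPL52: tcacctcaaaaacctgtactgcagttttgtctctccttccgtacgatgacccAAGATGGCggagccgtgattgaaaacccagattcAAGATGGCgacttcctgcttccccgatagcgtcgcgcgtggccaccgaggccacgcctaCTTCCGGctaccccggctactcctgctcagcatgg
MRPS26: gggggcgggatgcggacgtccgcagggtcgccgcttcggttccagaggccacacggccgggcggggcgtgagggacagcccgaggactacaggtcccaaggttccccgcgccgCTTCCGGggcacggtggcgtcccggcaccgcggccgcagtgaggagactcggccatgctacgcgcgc
MRPL38: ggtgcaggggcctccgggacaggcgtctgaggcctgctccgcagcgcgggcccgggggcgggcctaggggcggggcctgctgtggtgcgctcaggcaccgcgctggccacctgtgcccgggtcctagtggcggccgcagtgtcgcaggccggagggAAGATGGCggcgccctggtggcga
MRPL58: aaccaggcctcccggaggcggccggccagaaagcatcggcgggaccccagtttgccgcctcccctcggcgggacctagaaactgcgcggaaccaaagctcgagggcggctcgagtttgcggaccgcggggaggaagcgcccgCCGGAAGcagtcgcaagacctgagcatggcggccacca

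Searched on both strands of the whole promoter window, CCGGAAG occurred in 30 of the 69 promoters (43.5%), against 12.2% of the promoters of all 27305 RefSeq genes. AAGATGGC occurred in 21 (30.4%), against 3.52% of all. GCATGCG, the core of the NRF1 site, occurred in 7 (10.1%), against 4.74%, and TATAAA in 3 (4.35%), against 14.0%. CCGGAAG ends and AAGATGGC begins with the same letters, so matches may overlap, and 43 promoters (62.3%) held CCGGAAG or AAGATGGC, against 14.9% of all. The MRPL52 window holds AAGATGGC at 2 places and CTTCCGG, the reverse complement of CCGGAAG, close to its start. In MRPL38 the AAGATGGC letters lie just past the start. MRPL24 and MRPL1 held none of the 4 motifs in this window. Among the 10 genes higher without vehicle 001, all with a promoter entry, 6 held CCGGAAG and 3 AAGATGGC, and among the other 59 members with an entry 24 and 18 did. A match describes letters only, and binding was not measured.

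The 11 libraries held 22808033 to 39249329 counts. In RPM, a gene's counts per 1000000 counts of the library, the keratins KRT8 and KRT18 averaged 332 and 149. ERBB2, which encodes HER2, averaged 53.7, below these keratins and below the stroma genes COL3A1 (596) and FN1 (491). Other markers of luminal breast epithelium were low, with GATA3 at 6.50, EPCAM at 3.03, FOXA1 at 1.05, KRT19 at 0.803 and CDH1 at 0.456. The hormone receptors of the HR+ label were near 0, with ESR1 at 0.285 and PGR at 0.0655 RPM. The name BT-474 and the HR+/Her2+ status are those of the labels, and the identity of the cells was not tested. Vehicle 001 stood apart before any comparison. Its 100 most counted genes took 23.9% of its reads, where this share was 16.2% to 17.9% elsewhere. Short transcripts were counted relatively more in it: each doubling of length went with -0.21 log2 units, and in the other 10 libraries with -0.05 to 0.06. Each 10 points of GC content went with -0.29 log2 units in it and with -0.02 to 0.09 in the others. The comparison of the groups is therefore given with and without it. How reads of mouse cells in the tumours were handled is not given in the sources used here.

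The members took 7963 RPM (0.796% of counts) in vehicle 001, and 4504, 4334, 4653, 4680 and 4541 RPM in vehicle 003, 004, 005, 006 and 007. In evexomostat 002, 003, 004, 005 and 007 their sum was 5259, 5520, 5657, 5018 and 5446 RPM. All 5 evexomostat libraries were thus above 5 of the 6 vehicle libraries and below vehicle 001. Without vehicle 001 the means were 4542 ± 138 (SD, n = 5) and 5380 ± 248 RPM (SD, n = 5), and with it the vehicle mean was 5112 ± 1402 (SD, n = 6). In a bulk library, a change in the number of cells of a type and a change in RNA per cell cannot be told apart.

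**Figure D1:**
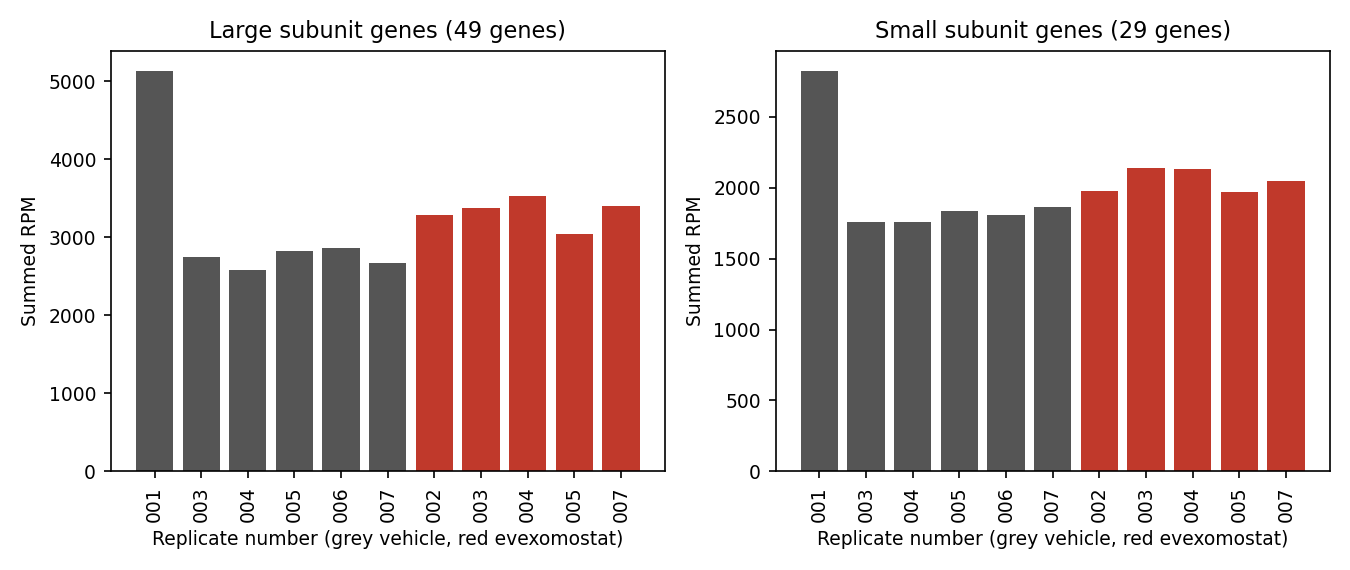
Summed RPM of the 49 large subunit genes (left) and the 29 small subunit genes (right) in each library, 1 bar per tumour, vehicle in grey and evexomostat in red. Vehicle 001 is the highest bar of both panels, at 5137 and 2826 RPM, and the evexomostat bars lie above those of the other 5 vehicle libraries.

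In RPM, both subunits had this order. RPM does not include the TMM scaling of library totals used in the tests below. The TMM factors were 0.956 for vehicle 007 and 1.05 for evexomostat 005. With them, the small subunit sum was higher in vehicle 007 than in evexomostat 005, so the groups overlapped. Large subunit genes summed to 2578 to 2868 RPM in vehicle 003 to 007 and to 3049 to 3525 RPM with evexomostat, and small subunit genes to 1756 to 1868 and 1969 to 2143 RPM. The ratio of large to small subunit sums was 1.82 in vehicle 001, 1.43 to 1.58 in the other vehicle libraries and 1.55 to 1.66 with evexomostat, so the groups overlapped in this ratio.

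Levels of different genes can be compared only per length, here as RPM per kilobase of exons averaged over the 11 libraries. MRPL51 (149), MRPS34 (125), both found only in mitochondria, and MRPL15 (121), which has a bacterial counterpart, were the highest. MRPL50 (8.79), MRPL48 (5.33) and MRPL42 (3.52) were the lowest of those tested, and the highest was 42.3-fold above the lowest. Over single libraries MRPL51 ran from 98.7 to 311 and MRPS34 from 89.8 to 232, so these neighbours in the order overlapped, and MRPL42 ran from 3.00 to 5.28. The annotated exons of MRPL42 sum to 16006 bases, so its value per kilobase depends on which exons are transcribed. Of the 3 paralogs related to bacterial S18, MRPS18C takes the place of S18 in the small subunit, MRPS18A sits in the large subunit and MRPS18B elsewhere in the small. MRPS18A was at 12.8 (10.1 to 15.7 over the libraries) and MRPS18C at 10.3 RPM per kilobase (8.42 to 15.1). MRPS18B is listed at 0 counts in every library. MRPS24 had 0 to 11 counts, while URGCP, with which it shares the read-through symbol URGCP-MRPS24, had 431 to 2101. A count of 0 allows a level of up to 3 counts, or 0.0764 to 0.132 RPM depending on the library, and covers counting error only. MRPS18B and MRPS24 did not pass the count filter, and 76 members were tested.

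With all 11 libraries, no member was called in either direction. The count was 0 higher and 0 lower of 76 at an edgeR adjusted p of 0.05, where 0.174% of the 16653 tested genes were called higher and 0.432% lower (0.606% in all). At an unadjusted p under 0.05 edgeR had 3 members, all higher (MRPS27, MRPL38 and MRPL3). Of all tested genes 13.4% were under it, 802 higher and 1423 lower. DESeq2 and limma-voom also called 0, with 3 and 2 at an unadjusted p under 0.05, but limma-voom with sample quality weights called 7 higher, and 384 of all 16653 genes. The members' median log2 fold change was -0.03, beside -0.04 over all genes, and 34 were above 0 and 42 below. With upper quartile scaling, or none beyond library size, the median turned to 0.01 and 0.08, beside 0.006 and 0.06 over all genes. No member had non-overlapping groups in either direction, where 1.33% of all genes had every evexomostat library above every vehicle library and 1.64% below. By the authors' deposited table, the FDR was under 0.05 for 268 genes and for 0 members. In it, 55 of the 76 members tested here had a fold change above 0. Its median log2 fold change was 0.08 for these members and 0.06 over the 16653 genes tested here.

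Nearest to the threshold was MRPS27, a small subunit protein with pentatricopeptide repeats. Its level, in CPM (as RPM, but after TMM scaling of the library total), was 51.7 in vehicle 001, 61.3, 62.7, 60.4, 48.8 and 62.5 in vehicle 003 to 007, and 81.2, 62.5, 73.4, 71.2 and 77.9 in evexomostat 002, 003, 004, 005 and 007. Vehicle 001 lay within its group here, and only evexomostat 003 fell within the vehicle range. The log2 fold change was 0.34 (standard error 0.12, adjusted p = 0.213 by edgeR), and without vehicle 001 it was 0.31 (standard error 0.10, adjusted p = 0.089 by edgeR). MRPL3, a large subunit protein of bacterial descent, was at 95.7 CPM in vehicle 001, 87.8, 90.1, 92.3, 91.9 and 96.5 in the other vehicle libraries and 161, 91.2, 109, 98.4 and 114 with evexomostat. Evexomostat 002 alone was far above the rest, and its group had a coefficient of variation of 23.8%, the highest of any member with evexomostat. The log2 fold change was 0.31 (standard error 0.14, adjusted p = 0.353 by edgeR), and 0.33 (standard error 0.14, adjusted p = 0.166 by edgeR) without vehicle 001. MRPS2, whose bacterial counterpart is S2, was at 72.8 CPM in vehicle 001, 54.9, 54.1, 55.2, 56.8 and 57.01 in the other vehicle libraries and 72.7, 62.1, 77.5, 58.9 and 74.5 with evexomostat. Without vehicle 001 its groups did not overlap, but the log2 fold change was 0.32 (standard error 0.09, adjusted p = 0.065 by edgeR), and 0.24 (standard error 0.12, adjusted p = 0.419 by edgeR) with all 11.

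Vehicle 001 was the highest vehicle library for 70 of the 76 members, and for 31.7% of all genes tested. It was the highest of all 11 for 66. Its CPM exceeded the mean of the other 5 vehicle libraries by a median of 0.96 log2 units over the members, where the median over all genes was -0.07. Chosen after their values were seen, the extremes were MRPL54 at 2.35 and MRPL49 at -0.53. MRPL54 was the member with the lowest fold change of the fit on all 11 libraries.

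MRPL54, found only in mitochondria, was at 149 CPM in vehicle 001, 30.7, 26.1, 28.5, 29.97 and 30.3 in the other vehicle libraries and 32.2, 41.3, 34.5, 30.7 and 35.3 with evexomostat. Its log2 fold change was -0.49 (standard error 0.43, adjusted p = 0.694 by edgeR) with all libraries and 0.26 (standard error 0.10, adjusted p = 0.135 by edgeR) without vehicle 001, a change of sign that rests on that 1 library. Over the members, 35 fold changes moved from below 0 to above 0 on leaving it out and 0 moved the other way.

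**Figure D2:**
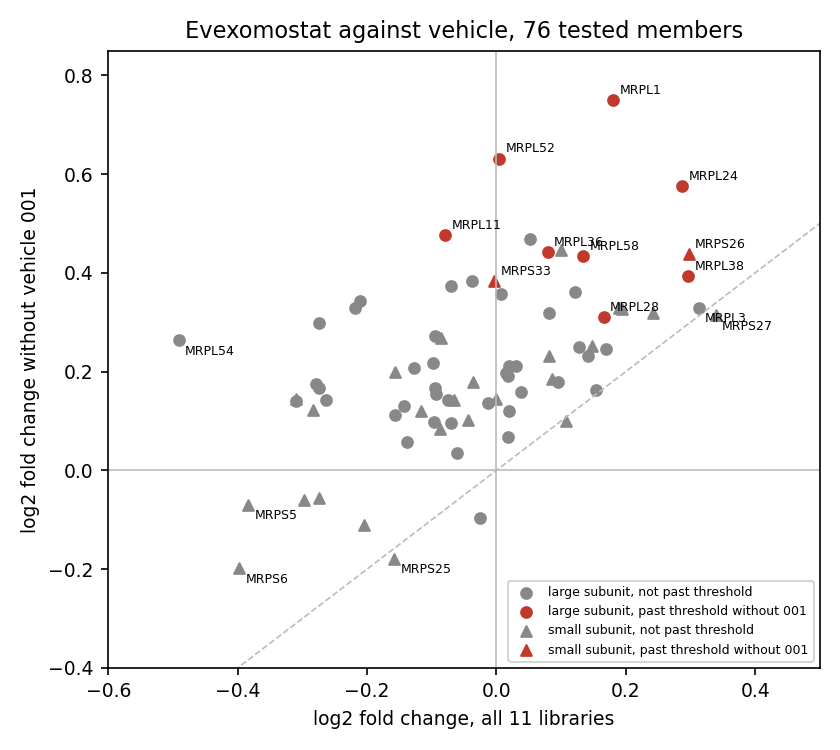
Log2 fold change of evexomostat against vehicle for the 76 tested members, with all 11 libraries on the horizontal axis and without vehicle 001 on the vertical axis; the dashed line marks equal values, circles are large and triangles small subunit genes, and red marks an adjusted p under 0.05 without vehicle 001. Of the 76 points, 69 lie above 0 on the vertical axis and 34 to the right of 0 on the horizontal one.

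Without vehicle 001, 10 of the 76 members (13.2%) were higher with evexomostat and 0 were lower, at an edgeR adjusted p under 0.05, where 1.98% of 16565 tested genes were called higher and 3.24% lower (5.22% in all). The 10 were MRPL1, MRPL11, MRPL24, MRPL28, MRPL36, MRPL38, MRPL52 and MRPL58 of the large subunit, 8 of 49, and MRPS26 and MRPS33 of the small subunit, 2 of 27 tested. The median log2 fold change was 0.20, beside -0.002 over all genes, and 69 members (90.8%) were above 0, beside 49.6% of all genes. It was 0.21 for the large subunit, with 48 of 49 above 0, and 0.15 for the small subunit, with 21 of 27. At an unadjusted p under 0.05 there were 34 members, all higher. Of all genes 24.4% were under it, 1813 higher and 2235 lower of 16565. The direction held under relative log expression, upper quartile and library-size scaling, with medians of 0.19, 0.25 and 0.25. For 13 members every evexomostat library was above every one of the 5 vehicle libraries, beside 4.14% of all genes, and for 0 members below, beside 4.21%. The 13 were MRPS2, MRPL22, MRPL23 and MRPL47, and 9 of the 10 called genes, MRPL36 being the exception. The count of 10 depended on single libraries: with 1 more library left out it was 2 (evexomostat 004 or 007), 3 (vehicle 004 or evexomostat 002), 5 (vehicle 003 or evexomostat 003), or 7 to 10 (any other), with 0 lower and a median of 0.17 to 0.22 each time. The count over all genes moved as well, from 328 higher to 68 and 62 without evexomostat 004 or 007, 121 and 115 without vehicle 004 or evexomostat 002, and 159 and 224 without vehicle 003 or evexomostat 003.

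MRPL24, whose bacterial counterpart binds early in the assembly of the large subunit, had the smallest p. It was at 55.97, 62.4, 60.8, 55.3 and 67.3 CPM in vehicle 003 to 007 and at 90.9, 90.97, 99.9, 81.8 and 84.5 CPM with evexomostat, while vehicle 001 was at 139. The evexomostat group lay between the 5 vehicle libraries and vehicle 001, with means of 60.3 ± 4.95 and 89.6 ± 7.00 CPM (SD, n = 5 each) without the latter. The log2 fold change was 0.58 (standard error 0.09, adjusted p = 0.00903 by edgeR), and 0.29 (standard error 0.22, adjusted p = 0.646 by edgeR) with all 11. MRPL1, which forms the mobile stalk at the exit site of tRNA, had the largest change. Its level was 21.9, 20.96, 20.8, 15.6 and 15.2 CPM in vehicle 003 to 007, 32.1, 36.3, 32.4, 26.1 and 31.6 CPM with evexomostat and 73.7 in vehicle 001. Here too the groups did not overlap without vehicle 001, at 18.9 ± 3.20 and 31.7 ± 3.65 CPM (SD, n = 5 each) and a log2 fold change of 0.75 (standard error 0.14, adjusted p = 0.0136 by edgeR). With all 11 it was 0.18 (standard error 0.37, adjusted p = 0.892 by edgeR). MRPL24 and MRPL1 passed the threshold in 17 of 17 alternatives to this fit. A replicate block on the 8 libraries with shared numbers, which also leaves out vehicle 001, ended both calls, with log2 fold changes of 0.53 and 0.68 (edgeR adjusted p = 0.0971 and 0.103).

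Next were MRPL11, at the base of the stalk where translation factors bind, and MRPL52, found only in mitochondria. MRPL11 was at 53.9, 43.6, 52.98, 45.5 and 46.8 CPM in vehicle 003 to 007, at 67.7, 68.01, 73.8, 58.7 and 68.5 with evexomostat and at 184 in vehicle 001. Its log2 fold change was 0.48 (standard error 0.10, adjusted p = 0.0198 by edgeR), against -0.08 (standard error 0.35, adjusted p = 0.957 by edgeR) with all 11 libraries. MRPL52, with the 3 motif matches printed above, was at 39.8, 39.6, 41.4, 44.6 and 26.9 CPM in vehicle 003 to 007, at 54.8, 71.7, 61.8, 49.7 and 58.96 with evexomostat and at 164 in vehicle 001. Its lowest vehicle library was 007 and its highest evexomostat library 003, and the log2 fold change was 0.63 (standard error 0.14, adjusted p = 0.0306 by edgeR), against 0.004 (standard error 0.39, adjusted p = 0.998 by edgeR) with all 11.

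**Figure D3:**
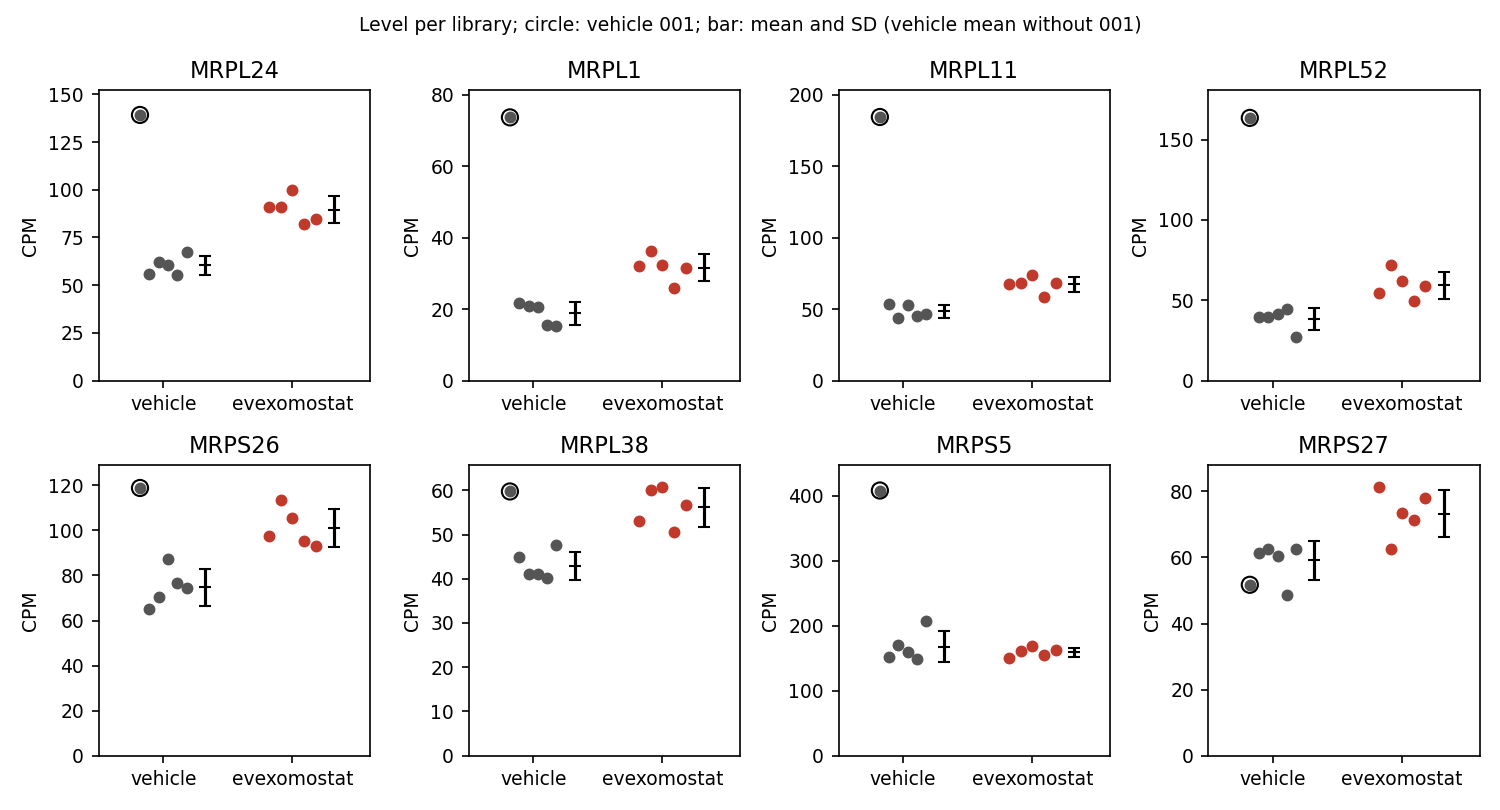
CPM of 8 members in each library, vehicle in grey with vehicle 001 circled, evexomostat in red, bars showing mean and SD with the vehicle mean taken without 001. In MRPL24, MRPL1, MRPL11 and MRPL52 the evexomostat points sit above the 5 uncircled vehicle points and below the circled one, while MRPS27 has vehicle 001 at 51.7 CPM, within its group.

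MRPL58, also known as ICT1, is a peptidyl-tRNA hydrolase that became part of the ribosome and frees stalled ones. It was at 21.4, 19.3, 20.6, 20.5 and 22.6 CPM in vehicle 003 to 007, 27.4, 26.4, 31.9, 25.1 and 29.7 CPM with evexomostat and 49.5 in vehicle 001, with a log2 fold change of 0.43 (standard error 0.10, adjusted p = 0.0312 by edgeR) without the latter and 0.13 (standard error 0.23, adjusted p = 0.869 by edgeR) with all 11 libraries. MRPL38, found only in mitochondria, was at 44.9, 41.1, 41.1, 40.1 and 47.6 CPM in vehicle 003 to 007. In the evexomostat libraries it was at 52.97, 59.99, 60.8, 50.5 and 56.6 CPM, and in vehicle 001 at 59.7. Without vehicle 001 its fold change was 0.39 (standard error 0.09, adjusted p = 0.0312 by edgeR). Vehicle 001 lay within the evexomostat range for MRPL38, the only called member of which that was so, and its fold change with all 11 libraries was 0.30 (standard error 0.13, adjusted p = 0.323 by edgeR). Removing a length and GC trend without vehicle 001 gave 0.22 (edgeR adjusted p = 0.22), no longer past the threshold.

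MRPL36 and MRPL28, both with bacterial counterparts, were closer to the threshold. MRPL36 was at 26.5, 26.8, 29.02, 34.6 and 31.7 CPM in vehicle 003 to 007, 40.03, 42.5, 40.7, 33.5 and 44.2 CPM with evexomostat and 79.9 in vehicle 001. Evexomostat 005 fell below vehicle 006, so the groups overlapped, at a log2 fold change of 0.44 (standard error 0.11, adjusted p = 0.0379 by edgeR), and 0.08 (standard error 0.27, adjusted p = 0.94 by edgeR) with all 11. MRPL28 was at 75.2, 76.3, 86.5, 76.04 and 83.8 CPM in vehicle 003 to 007, 97.6, 103, 101, 88.8 and 101 with evexomostat and 128 in vehicle 001. Its groups did not overlap without the latter, at a fold change of 0.31 (standard error 0.08, adjusted p = 0.0494 by edgeR), and 0.17 (standard error 0.15, adjusted p = 0.695 by edgeR) with all 11. With the length and GC trend removed it was 0.20 (edgeR adjusted p = 0.184). It passed in 5 of 17 alternatives, the fewest of the 10.

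The 2 called small subunit genes, MRPS26 and MRPS33, encode proteins found only in mitochondria. MRPS26 was at 65.1, 70.6, 87.3, 76.8 and 74.2 CPM in vehicle 003 to 007, 97.6, 113, 106, 95.2 and 93.02 CPM with evexomostat and 119 in vehicle 001, with a log2 fold change of 0.44 (standard error 0.10, adjusted p = 0.0308 by edgeR). MRPS33 was at 37.6, 38.97, 40.8, 47.8 and 41.1 CPM in vehicle 003 to 007, 53.5, 51.9, 58.9, 51.6 and 52.03 with evexomostat and 116 in vehicle 001, at 0.38 (standard error 0.09, adjusted p = 0.0322 by edgeR). For both, the lowest evexomostat library was above the highest of the 5 vehicle libraries. With all 11 libraries the fold changes were 0.30 (standard error 0.15, adjusted p = 0.431 by edgeR) and -0.003 (standard error 0.27, adjusted p = 0.998 by edgeR). With the length and GC trend removed, without vehicle 001, MRPS26 was at 0.25 (edgeR adjusted p = 0.133) and lost its call, and MRPS33 was at 0.44.

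A minority of members, 7 of 76, had a fold change below 0 without vehicle 001, and none of them passed. They were, by symbol, MRPS5, MRPS6, MRPS14, MRPS25, MRPS30 and MRPS35 of the small subunit and MRPL49 of the large. The product of MRPS30 sits in the large subunit. MRPS6, the lowest, was at 96.8 CPM in vehicle 001, 77.95, 49.7, 49.1, 41.4 and 39.8 in vehicle 003 to 007 and 36.7, 53.5, 51.9, 36.3 and 45.8 with evexomostat, with vehicle 003 high as well. Its log2 fold change was -0.20 (standard error 0.19, adjusted p = 0.554 by edgeR), and -0.40 (standard error 0.24, adjusted p = 0.508 by edgeR) with all libraries. MRPS5, whose bacterial counterpart lies where mRNA enters the ribosome, was at 408 CPM in vehicle 001, 152, 171, 159.98, 148 and 208 in the other vehicle libraries and 149.99, 161, 168, 154 and 162 with evexomostat. Its groups overlapped, the fold change moving from -0.38 (standard error 0.24, adjusted p = 0.55 by edgeR) to -0.07 (standard error 0.10, adjusted p = 0.713 by edgeR) when vehicle 001 was left out. MRPS35, found only in mitochondria, was at 135 to 204 CPM with vehicle and 115 to 163 with evexomostat, at -0.20 (standard error 0.14, adjusted p = 0.588 by edgeR) and -0.11 (standard error 0.11, adjusted p = 0.555 by edgeR). MRPS14, of bacterial descent, was at 19.3 to 44.1 and 14.9 to 23.4 CPM, at -0.30 (standard error 0.22, adjusted p = 0.62 by edgeR) and -0.06 (standard error 0.13, adjusted p = 0.811 by edgeR). MRPL10, which carries the stalk and was above 0 in both fits, was at 27.3 to 30.2 and 29.3 to 37.4 CPM, at 0.15 (standard error 0.11, adjusted p = 0.595 by edgeR) and 0.16 (standard error 0.09, adjusted p = 0.302 by edgeR), with vehicle 001 inside the range of its group.

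**Figure D4:**
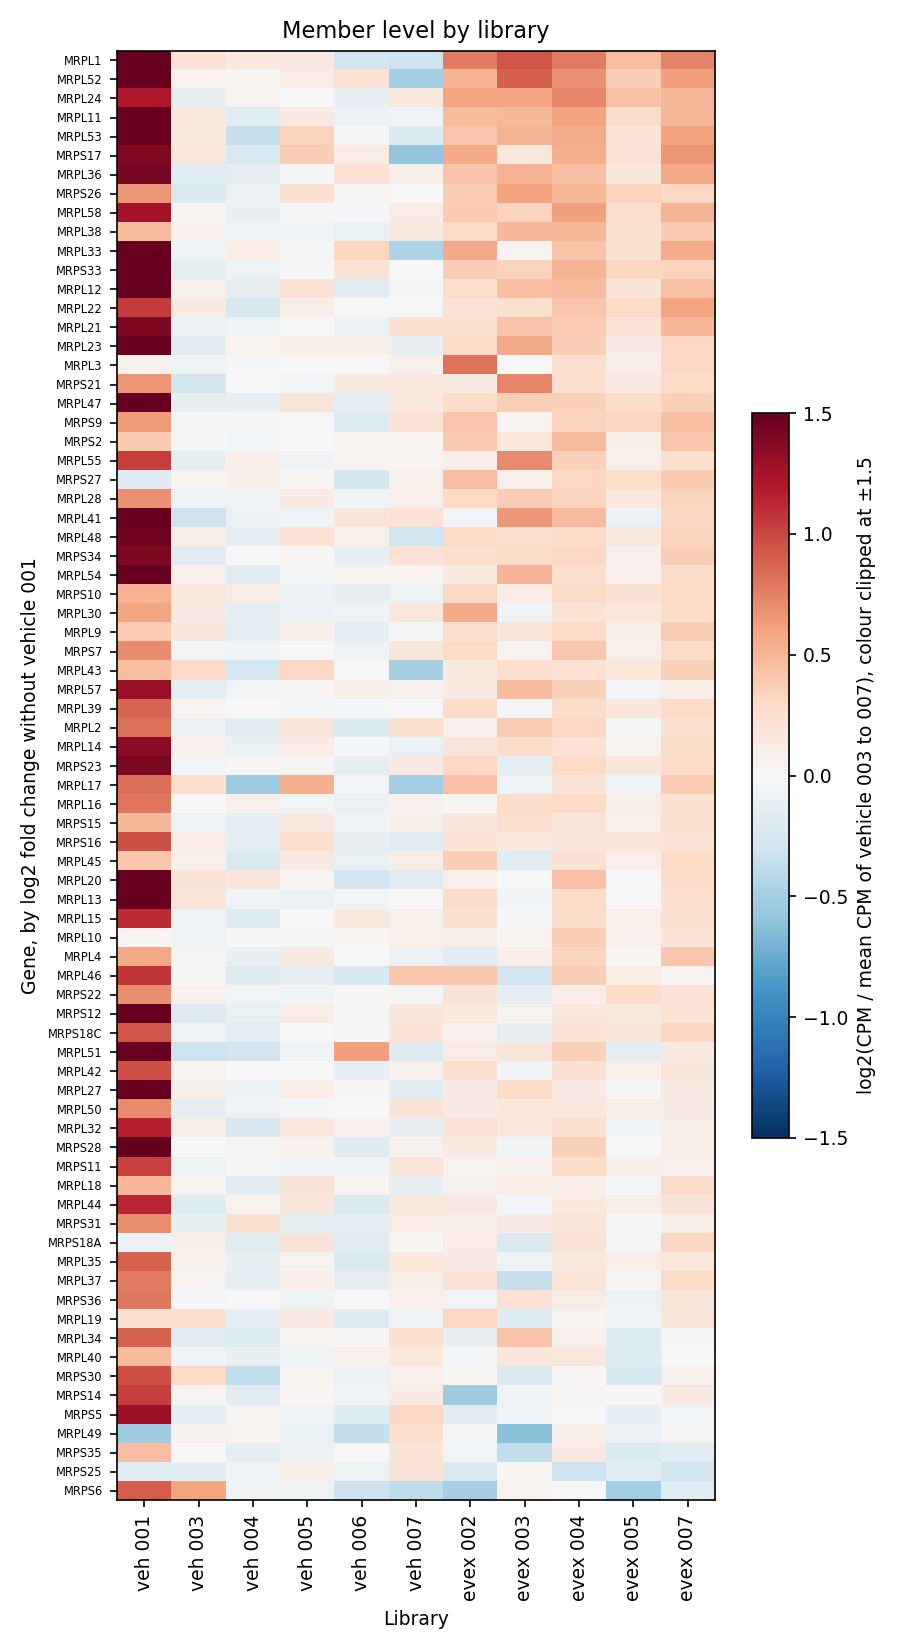
Log2 ratio of each member's CPM to its mean in vehicle 003 to 007, 76 tested members in rows, ordered by fold change without vehicle 001, and 11 libraries in columns, red above and blue below that mean and colour clipped at 1.5. The vehicle 001 column is red in nearly every row, the other vehicle columns are pale, and the evexomostat columns are red in the upper rows and pale or blue at the foot, where MRPS6 is.

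Members varied little within groups apart from vehicle 001. The median coefficient of variation was 9.75% over vehicle 003 to 007 and 10.2% with evexomostat, and MRPL17 had the highest of the vehicle group at 32.8%. MRPL17 was chosen for this after its value was seen.

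Transcripts of the members were short, with a median length of 1523.5 bases against 3218 over all tested genes, and their GC content was near that of all (48.7% and 49.1%). Across the 76 genes, the excess of vehicle 001 over other vehicle libraries was larger in shorter transcripts (Spearman's rho -0.37). The fold change without vehicle 001 had a rho of -0.21 with length, and that with all libraries 0.11. These describe genes measured in the same libraries, which are not independent replicates. When a trend of length and GC content was removed in each library, without vehicle 001, 5 members were still called higher (MRPL1, MRPL11, MRPL24, MRPL52 and MRPS33), and 0 lower, where 1.32% of all genes were higher and 2.17% lower (3.49% in all). The other 5 calls, MRPL28, MRPL36, MRPL38, MRPL58 and MRPS26, were lost. At an unadjusted p under 0.05 there were 21 members, all higher. Of all genes 22.1% were under it, 1775 higher and 1894 lower of 16565. Above 0 were 64 members, beside 51.7% of all genes, with a median of 0.15. With all 11 libraries and the trend removed, 0 members were called by edgeR and 7 had an unadjusted p under 0.05, with a median of 0.05.

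**Figure D5:**
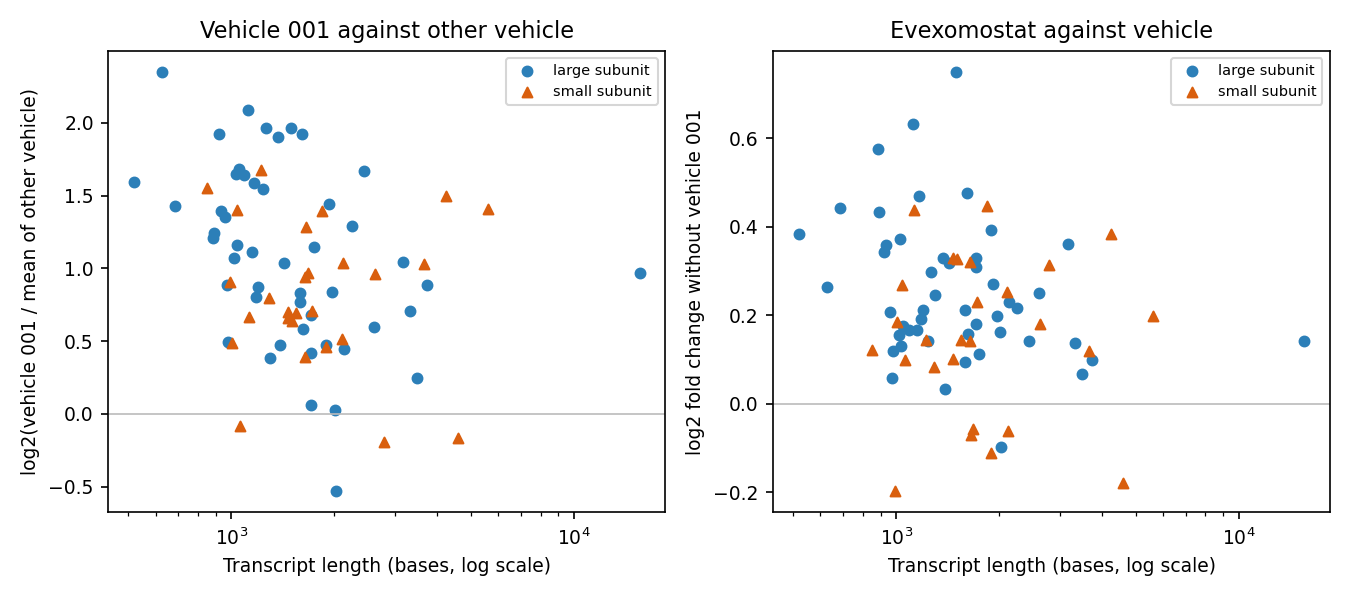
Transcript length in bases (log axis) of the 76 tested members against the log2 ratio of vehicle 001 to the mean of the other vehicle libraries (left) and the log2 fold change of evexomostat against vehicle without vehicle 001 (right), circles for the large and triangles for the small subunit. Points reach 2.35 at short lengths in the left panel, and the right panel spans -0.20 to 0.75 with a Spearman's rho of -0.21 against length.

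Mitoribosome proteins under other names were treated alike. Of DAP3, PTCD3, AURKAIP1, CHCHD1 and GADD45GIP1, 0 of 5 were called with all libraries (median -0.03). Without vehicle 001, GADD45GIP1, a large subunit protein, was higher, and the median was 0.37. GADD45GIP1 was at 68.2, 61.2, 77.8, 65.2 and 90.9 CPM in vehicle 003 to 007, 100.5, 117, 91.5, 85.8 and 116 with evexomostat and 237 in vehicle 001, with overlap between vehicle 007 and the evexomostat libraries, at 0.50 (standard error 0.13, adjusted p = 0.0485 by edgeR), and 0.03 (standard error 0.32, adjusted p = 0.984 by edgeR) with all 11. With all 11 libraries edgeR called none of the genes in this list and the 5 that follow, and at an unadjusted p under 0.05 it had 0 of 5 here, 2 of 24 assembly factors, 0 of 20 translation factors, 2 of 20 tRNA synthetases and amidotransferase subunits, 0 of 15 genes of mitochondrial DNA expression and 2 of 9 regulators.

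The machinery around the ribosome was read against the same all-gene shares, 1.98% higher and 3.24% lower without vehicle 001. Of 24 assembly factors, which build and modify the subunits, 0 were called without vehicle 001, with 6 at an unadjusted p under 0.05 and a median of 0.11 (0.03 with all 11). Of 20 translation factors and partners, SLIRP, an RNA-binding partner of LRPPRC that keeps mitochondrial mRNAs stable, was higher. SLIRP was at 27.5, 28.6, 29.6, 34.4 and 35.98 CPM in vehicle 003 to 007, 35.2, 49.1, 42.5, 38.9 and 43.9 with evexomostat and 134 in vehicle 001, so that evexomostat 002 lay below vehicle 007. Its log2 fold change was 0.43 (standard error 0.11, adjusted p = 0.0496 by edgeR), and -0.21 (standard error 0.39, adjusted p = 0.882 by edgeR) with all 11, and the list's median was 0.04 (-0.10 with all 11). The tRNA synthetases had 0 of 20 called, 3 at an unadjusted p under 0.05 and a median of 0.05 (0.04 with all 11). For the 15 genes of mitochondrial DNA transcription, replication and RNA processing these values were 0, 3 and 0.18 (0.11 with all 11). Over these 4 lists 1 gene was called, a share near that of all genes. The transcripts that mitochondrial ribosomes translate were not analysed here, as 0 of 15 symbols searched matched the table.

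Of 9 regulators of mitochondrial gene expression, 1 was lower without vehicle 001. This was PPARGC1B, a coactivator of mitochondrial biogenesis, at 60.1, 62.00, 70.4, 55.03 and 77.04 CPM in vehicle 003 to 007, 42.1, 33.98, 42.9, 47.6 and 42.2 with evexomostat and 31.8 in vehicle 001. All evexomostat libraries were below the 5 vehicle libraries and above vehicle 001, and the log2 fold change was -0.63 (standard error 0.12, adjusted p = 0.014 by edgeR), and -0.51 (standard error 0.19, adjusted p = 0.262 by edgeR) with all 11, opposite in sign to those of the called members. NRF1 and GABPA, factors for motifs searched above, had log2 fold changes of 0.21 (standard error 0.11, adjusted p = 0.271 by edgeR) and -0.21 (standard error 0.08, adjusted p = 0.147 by edgeR), and MYC 0.44 (standard error 0.16, adjusted p = 0.121 by edgeR). With all 11 they were 0.19, -0.18 and 0.48.

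In RPM, summed cytosolic ribosomal protein genes were placed as the members were, highest in vehicle 001 and higher in every evexomostat library than in the other 5 vehicle libraries. With TMM scaling (factors 0.983 and 1.05) the sum was higher in vehicle 005 than in evexomostat 005, so the groups overlapped. With all libraries 0 of 80 tested were called by edgeR with 0 at an unadjusted p under 0.05 and a median of -0.04. Without vehicle 001, 8 were higher and 0 lower, beside 1.98% and 3.24% of all genes, with a median of 0.36 and 78 above 0. At an unadjusted p under 0.05 there were 59, all higher. The 8 were RPL27, RPL36, RPL38, RPL41, RPS3, RPS13, RPS21 and RPS29. With the length and GC trend removed, without vehicle 001, 3 were called higher, beside 1.32% of all genes. The 83 listed genes summed to 146886 RPM in vehicle 001, 49523 to 71807 in the other vehicle libraries and 72347 to 88651 with evexomostat. Nuclear respiratory chain and ATP synthase genes had 0 of 78 called in either fit, with 1 and 25 at an unadjusted p under 0.05 and medians of -0.22 and 0.17. No test compared these lists with the members.

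Markers of other tissues were measured in the same libraries. The summed level of 15 skeletal muscle genes was 529 RPM in evexomostat 005, against 7.19 to 27.8 RPM with vehicle and 7.10 to 62.8 in the other evexomostat libraries. Without vehicle 001, leaving out evexomostat 005 as well gave 7 members higher in place of 10. Over all genes it gave 169 higher in place of 328. Evexomostat 005 also had the lowest member sum of its group. The summed level of 10 stroma genes was 692 to 3549 RPM with vehicle and 741 to 1387 with evexomostat, and its part in the members' difference was not tested. That of 8 adipocyte genes was 1.38 to 8.92 RPM over all libraries, with ADIPOQ and RETN at 0. In the fit without vehicle 001, 6 of the 10 stroma genes were above 0, with a median of 0.23, and 1 was called, FN1 (fibronectin), lower at -2.33 (standard error 0.42, adjusted p = 0.0132 by edgeR). With all 11 it was -2.18 (standard error 0.45, adjusted p = 0.0503 by edgeR). Of the 8 muscle genes tested 7 were above 0, with a median of 3.37 and 6 higher at an unadjusted p under 0.05. The only call was MYBPC2, a muscle myosin-binding protein, lower at -1.34 (standard error 0.30, adjusted p = 0.0302 by edgeR), and -1.34 (standard error 0.30, adjusted p = 0.0665 by edgeR) with all 11.

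Some symbols near the members could share reads with them. MRPL20-AS1, antisense to MRPL20, had 254 to 667 counts, MRPS31P5, a pseudogene copy of MRPS31, 188 to 465, and MRPL45P2, a copy of MRPL45, 90 to 122. The library kit is not stated to mark strand, so reads of MRPL20 and its antisense partner cannot be told apart. How reads matching both a gene and its pseudogene copy were counted is not given in the sources used here. The levels of MRPL20, MRPS31 and MRPL45 are uncertain to that extent. None of these 3 is among the 10 called members.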

How the data were processed

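RNA from 11 BT-474 tumours was sequenced as 150-base paired reads, per the labels' protocols. The submitters' processing notes name bcl2fastq 2.17, STAR 2.7.5c, featureCounts, Subread, edgeR and GRCh37/hg19, without settings; strand and mouse reads are not covered in the sources used here. The authors deposited read counts per gene symbol, and an RPM table in which each count is divided by its library's total (checked, largest difference 9e-13). The authors' deposited comparison table gives log2 fold changes, p-values and FDRs, and the mean of each group in RPM.

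Genes passing filterByExpr (minimum count 10, minimum total 15) were tested with edgeR 4.0.16 (R 4.3.3, limma 3.58.1): TMM scaling, quasi-likelihood F-test, Benjamini-Hochberg adjustment over all tested genes, threshold 0.05, no covariates. Standard errors are those the F statistic implies, and CPM are TMM-normalised. Libraries held 22808033 to 39249329 counts, and each tested member had at least 258 in every library. MRPS18B and MRPS24 did not pass the filter, and why was not tested. No pair of libraries agreed within sampling noise (lowest chi-square per degree of freedom 12.6). The scripts were tested on simulated counts with 200 changed genes and the dispersions of all 11 libraries. With 6 against 5 libraries edgeR recovered 5.2% of 1.5-fold and 92.5% of 4-fold changes. With 5 against 5 it recovered 2.6% and 89.6%, still with the dispersions of all 11 libraries. These 2 shares therefore do not describe the real fit without vehicle 001, whose recovery was not tested. With all 11 libraries, a lack of calls says little about small changes. Of the calls with 6 against 5 libraries, 7% were false by edgeR and 24.8% by DESeq2. Alternatives were other scalings, limma-voom (also with quality weights), DESeq2 1.42.0, limma on log2(RPM + 1) and log2(RPM + 0.1), other filters, length and GC splines (GENCODE 29, 94.5% of tested genes matched), a replicate block and each library left out.

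Members and lists were chosen with earlier results of these data known. Named are the members past the threshold, the 10 smallest p-values in each fit, the extreme fold changes, the 3 highest and lowest levels per length, the MRPS18 paralogs and called genes of the other lists. The cytosolic ribosome and respiratory chain lists were chosen by symbol pattern after the files were seen. Replicate numbers 003, 004, 005 and 007 occur in both groups.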

Additional observations from a re-analysis of the deposited data

Results flagged for a closer look

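In 60 groups of libraries examined for the members described above, a gap test was applied (Dixon's, at its 95% critical value). In 23 of them 1 library was farther from the others than it allows. Chance marks about 1 in 20 independent groups, or 3 of 60. That rate does not apply here, as the groups share libraries and many members were named by p-value or fold change. In 22 of the 23 that library was vehicle 001, and always as the highest.

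Against the range of the other 5 vehicle libraries, it stood out for MRPS2 (72.8 against 54.1 to 57.01 CPM), MRPS5 (408 against 148 to 208 CPM), MRPS14 (44.1 against 19.3 to 23.4 CPM), MRPL24 (139 against 55.3 to 67.3 CPM), MRPL1 (73.7 against 15.2 to 21.9 CPM), MRPL11 (184 against 43.6 to 53.9 CPM), MRPL52 (164 against 26.9 to 44.6 CPM), MRPL58 (49.5 against 19.3 to 22.6 CPM), MRPS33 (116 against 37.6 to 47.8 CPM) and MRPL36 (79.9 against 26.5 to 34.6 CPM). It stood out also for MRPL28 (128 against 75.2 to 86.5 CPM), MRPL54 (149 against 26.1 to 30.7 CPM), MRPL51 (561 against 155 to 295 CPM), MRPS34 (282 against 95.1 to 124 CPM), MRPL15 (262 against 107 to 133 CPM), MRPL50 (43.7 against 24.4 to 30.8 CPM), MRPL48 (35.8 against 10.7 to 15.2 CPM), MRPL42 (98.3 against 46.2 to 52.5 CPM) and MRPS18C (28.9 against 13.8 to 17.4 CPM). The summed members were at 7963 RPM there, against 4334 to 4680, with 5137 against 2578 to 2868 RPM for the large and 2826 against 1756 to 1868 RPM for the small subunit. These flags share 1 library and are not separate observations.

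In the remaining case evexomostat 004 was the highest of its group for MRPS33, at 58.9 CPM against 51.6 to 53.5 CPM.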

How the results depend on the processing

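With all 11 libraries, 0 members were called higher, and this count remained at 0 under other scalings, filters, DESeq2, limma-voom, limma on RPM and removal of the length and GC trend; it was 7 with sample quality weights in limma-voom, beside 384 of all genes. Leaving out 1 library at a time gave 0 to 10 higher, 0 to 0 lower and medians of -0.09 to 0.20, the upper ends coming only from leaving out vehicle 001. Without vehicle 001 the 10 calls became 19 with library size only, 17 with DESeq2, 18 with upper quartile scaling, 16 with quality weights and 5 with the length and GC trend removed. Over all genes the 328 higher calls became 555, 815, 490, 537 and 218. Leaving out a further library gave 2 to 10 higher, 0 to 0 lower and medians of 0.17 to 0.22: 2 without evexomostat 004 or 007, 3 without vehicle 004 or evexomostat 002, 5 without vehicle 003 or evexomostat 003. The cause of these shifts was not tested. The choices added after the data were seen are upper quartile, relative log expression, voom and quality weights, the length and GC trend and further libraries left out, all without vehicle 001.

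Whether the replicate numbers shared by the groups pair the samples was not settled. Correlations between differently numbered libraries are not given for comparison, so those of same-numbered libraries cannot decide it. Same-numbered libraries deviated together with correlations of -0.27, 0.07, 0.05 and -0.10 for 003, 004, 005 and 007. With the replicate block on these 8 libraries 0 members were called higher by edgeR, 17 had an unadjusted p under 0.05 and the median was 0.17. The same libraries without the block gave 5 higher. Over all genes 24 were called higher with the block and 225 without it, of 107 and 733 calls in either direction.

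Some fold changes changed sign, among them MRPL54 (-0.49 with all 11 libraries) and MRPS14 (-0.30); the cause was not tested. MRPL11 (-0.08 with all 11 libraries) was 0.0687 with library size only, 0.161 with voom, 0.429 with quality weights, 0.442 with the block and 0.441 without it, 0.242 and 0.247 on log2(RPM + 1) and log2(RPM + 0.1), and 0.0223 with the length and GC trend removed. MRPS33 was 0.0299 with upper quartile scaling, 0.128 with library size only, 0.144 with voom, 0.366 with quality weights, 0.0088 with no count filter, 0.0051 with a mean log2 CPM of at least 1, 0.428 with the block and 0.429 without it, 0.221 and 0.226 on the RPM scales and 0.0662 with the trend removed. MRPL52 was -0.0052 with relative log expression and -0.0068 with DESeq2. MRPL54 was 0.182 with quality weights, 0.283 with the block and 0.288 without it, and MRPS14 0.0118 and 0.0103. With 1 library left out, MRPL11 ranged from -0.187 to 0.477, MRPS33 from -0.0876 to 0.383, MRPL52 from -0.145 to 0.632, MRPL54 from -0.621 to 0.264 and MRPL36 from -0.0059 to 0.442. Limma on log2(RPM + 0.1) moved the median of all genes from -0.04 to 0.10, and that of the members to 0.13.

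Tested members had at least 258 counts in every library, and their precision also depends on the SDs between tumours.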
